A study of Homo sapiens with 60 samples.

Results

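The genes described here are targets of the transcription factor p53 that act in growth arrest, DNA repair and neighbouring responses to DNA damage. They come from a written list of 40 gene symbols, each taken at the probe set with the highest mean over all arrays. Of the 40, 38 had a value among the 19775 genes measured, and BTG2 and FDXR were not analysed here. RNA was measured on 60 Affymetrix U133 Plus version 2 arrays in 3 human breast cell lines under 4 treatments, with 5 arrays from independent experiments in each of the 12 groups. SKBR3 is a mammary adenocarcinoma line with constitutive overexpression of the receptor HER-2. C5.2 was derived from HB4a by transfection with full-length HER-2 cDNA, is known as 1 clone, and carries the extra HER-2 on the background of its parent. HB4a derives from normal breast epithelium and is known to have been immortalised with a temperature-sensitive large T antigen, a viral protein that binds p53, which C5.2 shares. Each line received doxorubicin at 30 nM, rapamycin at 20 nM, both drugs at those doses, or the DMSO vehicle, and no treatment time is given. The series asked how lines that overexpress HER-2 respond to the drug pair.

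p53 is kept low in unstressed cells by the ubiquitin ligase MDM2 and accumulates after DNA breaks, such as those that doxorubicin causes through topoisomerase II. It then binds DNA as a tetramer, at pairs of short half-sites, and raises transcription of genes for growth arrest, repair, metabolism and cell death. Rapamycin acts elsewhere, on the growth-controlling kinase complex mTORC1. SKBR3 is known to carry a missense mutation in its p53 gene. The p53 gene itself was not analysed here.

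All values are log2 probe set summaries, so 1 unit is a doubling of signal, and levels of different genes are not compared because each probe set binds with its own strength. Changes are differences of group means ± the standard error from limma, a linear model fitted over all genes, with n = 5 arrays per group. A gene was tested where at least 5 arrays of the fit exceeded log2 5, and "rose" or "fell" is written where the 2-sided adjusted p was under 0.05. Array medians lay between 1.41 and 1.71, and a value at or under the array's own median was taken as background. In vehicle, ERBB2, which encodes HER-2, averaged 11.48 (SD 0.35) in SKBR3, 12.06 (SD 0.25) in C5.2 and 6.67 (SD 0.23) in HB4a. Summed levels of 5 epithelial markers lay at 43.8 to 48.6 in SKBR3, 37.0 to 41.6 in C5.2 and 49.0 to 49.9 in HB4a, with 1 marker at background in SKBR3. Those of 4 leukocyte markers lay at 4.21 to 4.99 in SKBR3, 3.61 to 5.03 in C5.2 and 5.34 to 6.39 in HB4a. In the same order, 5 fibroblast markers summed to 7.86 to 9.40, 14.5 to 16.2 and 15.9 to 17.3. Sums of 4 endothelial markers were 6.63 to 9.01, 8.96 to 9.73 and 9.03 to 10.1. The third SKBR3 vehicle array stood apart: LGALS3, NNMT and SPARC, 3 genes that are high in C5.2 and HB4a, summed to 16.3 there, against 1.24 to 3.12 over the drug-treated SKBR3 groups, so SKBR3 calls that were lost without it are named beside the results. Line and processing batch cannot be told apart. In these bulk cultures, fewer cells of a kind and less RNA per cell cannot be told apart either.

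The promoters of a few members hold the paired half-sites that p53 binds, and these are shown because the genes beside them were among those that rose with doxorubicin. RefSeq windows of 300 bases around transcription starts (GRCh38.p14) were on hand for 34 of the 40 listed genes, as 50 windows. An exact match to the p53 half-site occurred in 8 of them, 16.0%, against 6.63% of all 35116 windows, and lay in ABHD4, AEN, DDB2, EI24, FDXR, PLK2, RPS27L and SLC12A4. A full site, meaning 2 half-sites with at most 13 bases between them and at most 2 mismatches outside their cores, occurred in 3 windows, 6.0%, against 1.46% of all windows. The members were listed as p53 targets, so these shares are no test of the list. The half-site reads alike on both strands, and no other motif was searched. The 3 windows with a full site follow, 5′ to 3′ on the strand of the gene, with the half-sites in capitals. The DDB2 window is chr11:47214724-47215023 on the + strand, with a perfect pair 1 base apart that begins 5 bases after the start. The AEN window is chr15:88621090-88621389 on the + strand, with an adjoining pair with 2 mismatches that begins 34 bases before the start. The SLC12A4 window is chr16:67964003-67964302 on the - strand, with a pair 7 bases apart with 1 mismatch that begins 69 bases before the start. DDB2 and SLC12A4 also had windows at other starts, and those held no exact half-site and no full site.
DDB2: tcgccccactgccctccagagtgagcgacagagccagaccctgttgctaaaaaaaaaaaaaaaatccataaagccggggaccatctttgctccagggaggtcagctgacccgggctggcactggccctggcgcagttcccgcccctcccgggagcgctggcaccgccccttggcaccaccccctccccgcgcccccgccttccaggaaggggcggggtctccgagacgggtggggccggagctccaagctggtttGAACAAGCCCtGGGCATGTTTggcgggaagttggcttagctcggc
AEN: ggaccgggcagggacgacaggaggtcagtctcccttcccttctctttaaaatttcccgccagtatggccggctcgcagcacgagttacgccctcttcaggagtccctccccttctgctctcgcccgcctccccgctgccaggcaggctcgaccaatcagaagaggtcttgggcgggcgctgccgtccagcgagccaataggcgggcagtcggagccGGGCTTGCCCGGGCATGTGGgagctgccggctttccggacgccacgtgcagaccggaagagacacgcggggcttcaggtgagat
SLC12A4: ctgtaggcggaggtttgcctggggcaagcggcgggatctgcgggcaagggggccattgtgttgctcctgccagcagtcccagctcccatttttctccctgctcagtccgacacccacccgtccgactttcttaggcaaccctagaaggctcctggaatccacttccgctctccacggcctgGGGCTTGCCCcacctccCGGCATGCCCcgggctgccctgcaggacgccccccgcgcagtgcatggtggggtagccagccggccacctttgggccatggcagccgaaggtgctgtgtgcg
A match is a description of the letters, and a window without one says only that this stretch lacks them. The windows searched for TP53I3, CYFIP2, CES2, XPC and CEACAM1, which are among the genes with the widest changes below, held no exact half-site.

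Doxorubicin raised many of these genes in C5.2 and HB4a and, in SKBR3, a single gene. Over all 38 members, with no filter on low values, 1 rose and 0 fell in SKBR3 (DRAM1), 17 rose and 0 fell in C5.2, and 23 rose and 0 fell in HB4a. The share of all 19775 genes called in either direction by the same rule was 0.445% in SKBR3, 1.22% in C5.2 and 4.4% in HB4a. The median difference over the 38 was -0.06 in SKBR3, 0.75 in C5.2 and 0.64 in HB4a, while the median over all genes was within 0.01 of 0 in each line. The difference was positive for 14 members in SKBR3, 36 in C5.2 and 33 in HB4a.

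Among members past the filter, 0 of 18 were called in SKBR3, where 0.837% of all 5977 genes tested were called and 1 member had an unadjusted p under 0.05. In C5.2, 15 of 25 rose and 0 fell, where 3.26% of 6292 genes were called and 2.84% rose. In HB4a, 18 of 26 rose and 0 fell, where 11.4% of 6167 genes were called and 8.66% rose. Of the tested members, 5 in C5.2 (CEACAM1, CYFIP2, PHLDA3, PIDD1 and SERTAD1) and 6 in HB4a (ANKRA2, DRAM1, PIDD1, POLH, SLC12A4 and TNFAIP8) passed the filter only with the help of arrays that had received doxorubicin, which favours genes that are high there, so the counts over all 38 were given first. In SKBR3, AEN, ASCC3, PLK2 and ZMAT3 also passed only with the help of such arrays. The experiment number pairs the arrays of this contrast. With experiment number as a block, fitted over all 4 treatments of a line, the counts were 0 in SKBR3, 21 in C5.2 (17.4% of all genes) and 23 in HB4a (32.7%, with 22 members higher and BTG1 lower). In C5.2 and HB4a that fit included combined arrays that did not pair in every contrast. The members gained in C5.2 were ANKRA2, BLOC1S2, GADD45A, PLK2, SERTAD1 and ZMAT3, with blocked adjusted p at or under 0.00179. Those gained in HB4a were TIGAR, TRIAP1, PLK2 and ZMAT3, at or under 0.0177, and BTG1 at 0.0294. Without the arrays that stood apart from their groups (experiment 1 of SKBR3, experiment 2 of C5.2, and experiment 1 and rapamycin array 4 of HB4a) 0 members were called in SKBR3, 21 in C5.2 and 23 in HB4a. The share of all genes called in that run is not given here, so these counts show only that the calls did not shrink.

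**Figure D1:**
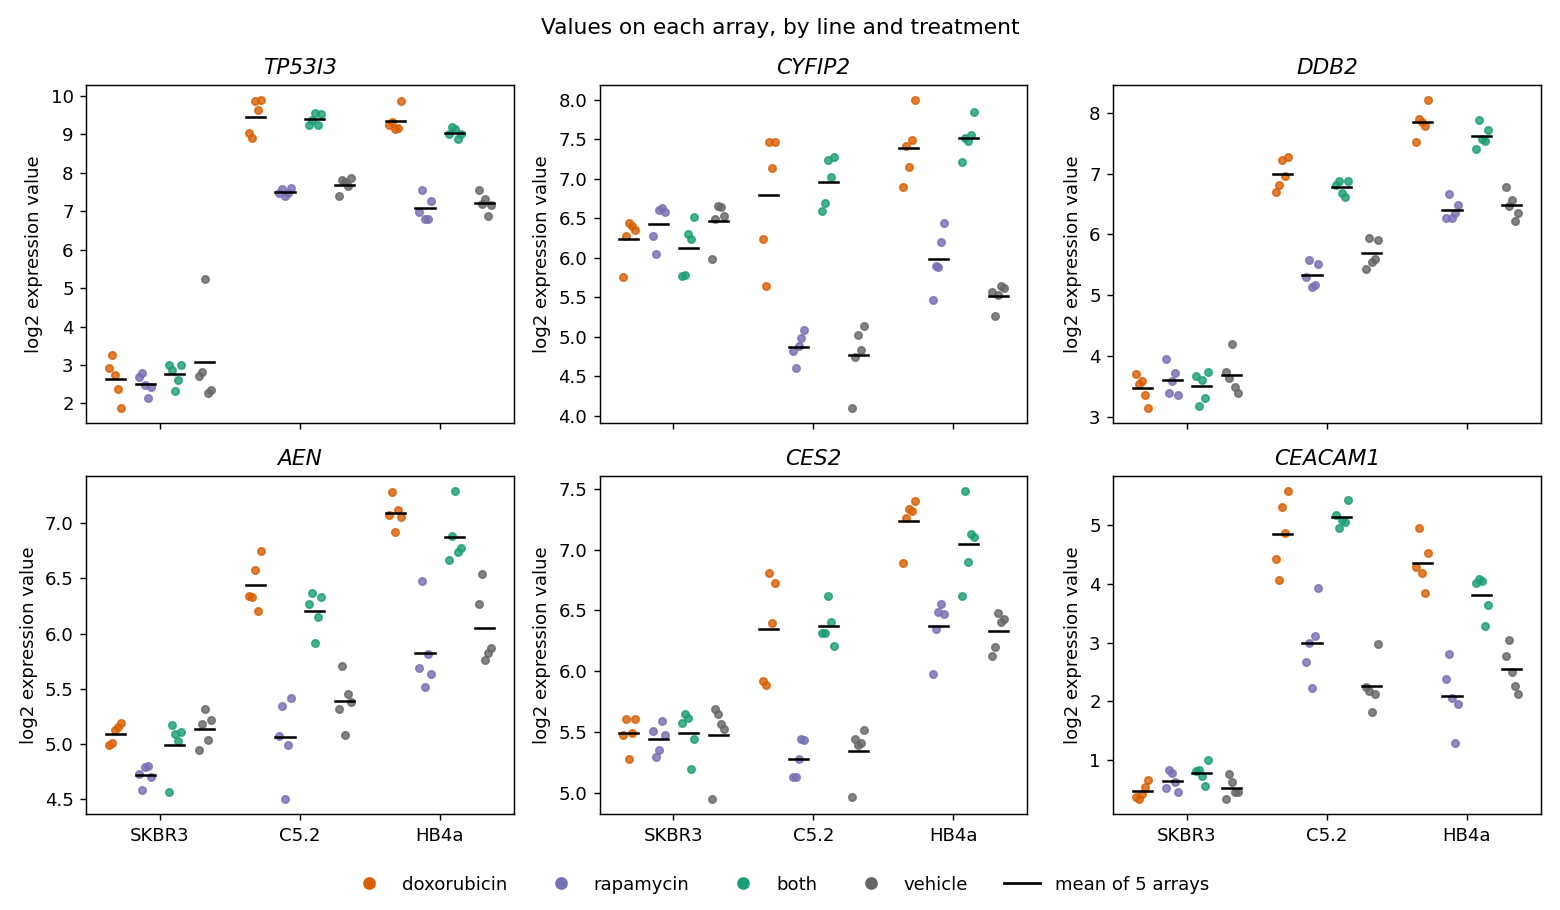
Log2 level (vertical axis) of TP53I3, CYFIP2, DDB2, AEN, CES2 and CEACAM1 on each of the 60 arrays, with lines along the horizontal axis, a point per array coloured by treatment, and a bar for each group mean. In C5.2 and HB4a the doxorubicin arrays of each of the 6 genes lie above all vehicle arrays of the line, and in SKBR3 the groups overlap.

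Among the metabolic enzymes and carriers, TP53I3 had the widest change. TP53I3 encodes a quinone oxidoreductase that forms reactive oxygen species. With doxorubicin its 5 C5.2 arrays, in the order of experiments 1, 2, 3, 4 and 6 used throughout, had 9.03, 8.91, 9.87, 9.63 and 9.89, against 7.41, 7.81, 7.76, 7.65 and 7.86 with vehicle. In HB4a the doxorubicin arrays had 9.24, 9.33, 9.14, 9.16 and 9.87, against 7.56, 7.19, 7.31, 6.88 and 7.16 with vehicle. The groups did not overlap in either line. TP53I3 rose by 1.77 ± 0.16 in C5.2, a 3.41-fold change (adjusted p = 1.25e-06), and by 2.13 ± 0.16 in HB4a, a 4.37-fold change (adjusted p = 1.36e-08).

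CES2, a carboxylesterase that hydrolyses esters of drugs and lipids, showed the same separation. It had 5.92, 5.89, 6.80, 6.39 and 6.72 in C5.2 with doxorubicin, against 4.96, 5.45, 5.39, 5.41 and 5.52 with vehicle. In HB4a it had 6.89, 7.26, 7.33, 7.32 and 7.40 with doxorubicin, against 6.12, 6.20, 6.48, 6.41 and 6.43 with vehicle. Each doxorubicin array was above each vehicle array of its line, and CES2 rose by 1.0 ± 0.16 in C5.2 (adjusted p = 0.000861) and by 0.91 ± 0.15 in HB4a (adjusted p = 0.000309). SLC12A4, a potassium and chloride cotransporter, rose by 0.46 ± 0.11 in C5.2, a call lost with no filter, under quantile normalization (adjusted p = 0.163) and when any 1 of 6 arrays was left out, and by 0.71 ± 0.13 in HB4a. Its other 4 probe sets differed by -0.30 to -0.08 in C5.2 and by -0.15 to 0.15 in HB4a, so the rise rests on 1 probe set. TIGAR, a phosphatase that lowers fructose bisphosphate and slows glycolysis, rose by 0.99 ± 0.22 in C5.2 (adjusted p = 0.0151). In HB4a TIGAR differed by 0.93 ± 0.31, which did not pass (adjusted p = 0.0577, or 0.000106 with the block). ABHD4, a lipid hydrolase, rose by 0.56 ± 0.14 in HB4a, with overlapping groups, and differed by 0.25 ± 0.10 in C5.2 (adjusted p = 0.258). ACER2, a Golgi ceramidase, lay under the filter. Fitted with no filter it rose in both lines, by at least 0.53 in C5.2 (adjusted p = 0.0140) and at least 0.83 in HB4a (adjusted p = 0.000130), where "at least" sets the vehicle arrays at their background.

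The members of nucleotide excision repair rose in C5.2 and HB4a. DDB2, which recognises ultraviolet damage in chromatin and whose promoter above holds the perfect pair of half-sites, had 6.69, 6.81, 7.22, 6.95 and 7.27 in C5.2 with doxorubicin, against 5.44, 5.95, 5.55, 5.61 and 5.90 with vehicle. In HB4a DDB2 had 7.51, 7.89, 7.84, 7.78 and 8.20 with doxorubicin, against 6.77, 6.46, 6.57, 6.23 and 6.36 with vehicle. DDB2 was above the vehicle range on all 5 doxorubicin arrays of each line and rose by 1.30 ± 0.13 in C5.2 (2.46-fold, adjusted p = 2.95e-06) and by 1.37 ± 0.13 in HB4a (2.58-fold, adjusted p = 4.06e-07). XPC, which finds distorted DNA and starts the same repair, rose by 1.04 ± 0.15 in C5.2 (adjusted p = 0.000188) and 0.90 ± 0.11 in HB4a (adjusted p = 1.38e-05).

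POLH, the polymerase that copies past ultraviolet lesions, rose by 0.64 ± 0.16 in HB4a (adjusted p = 0.0111). In C5.2 it was under the filter, and with no filter it rose by 0.83 ± 0.19 (adjusted p = 0.0294). RRM2B, a ribonucleotide reductase subunit that supplies nucleotides for repair, was under the filter in both lines and differed by 0.87 in C5.2 (adjusted p = 0.2965) and 1.07 ± 0.36 in HB4a (adjusted p = 0.11). ASCC3, a helicase used in the repair of alkylated DNA, was likewise under the filter and differed by 0.31 in C5.2 and 0.51 in HB4a, neither of which passed.

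**Figure D2:**
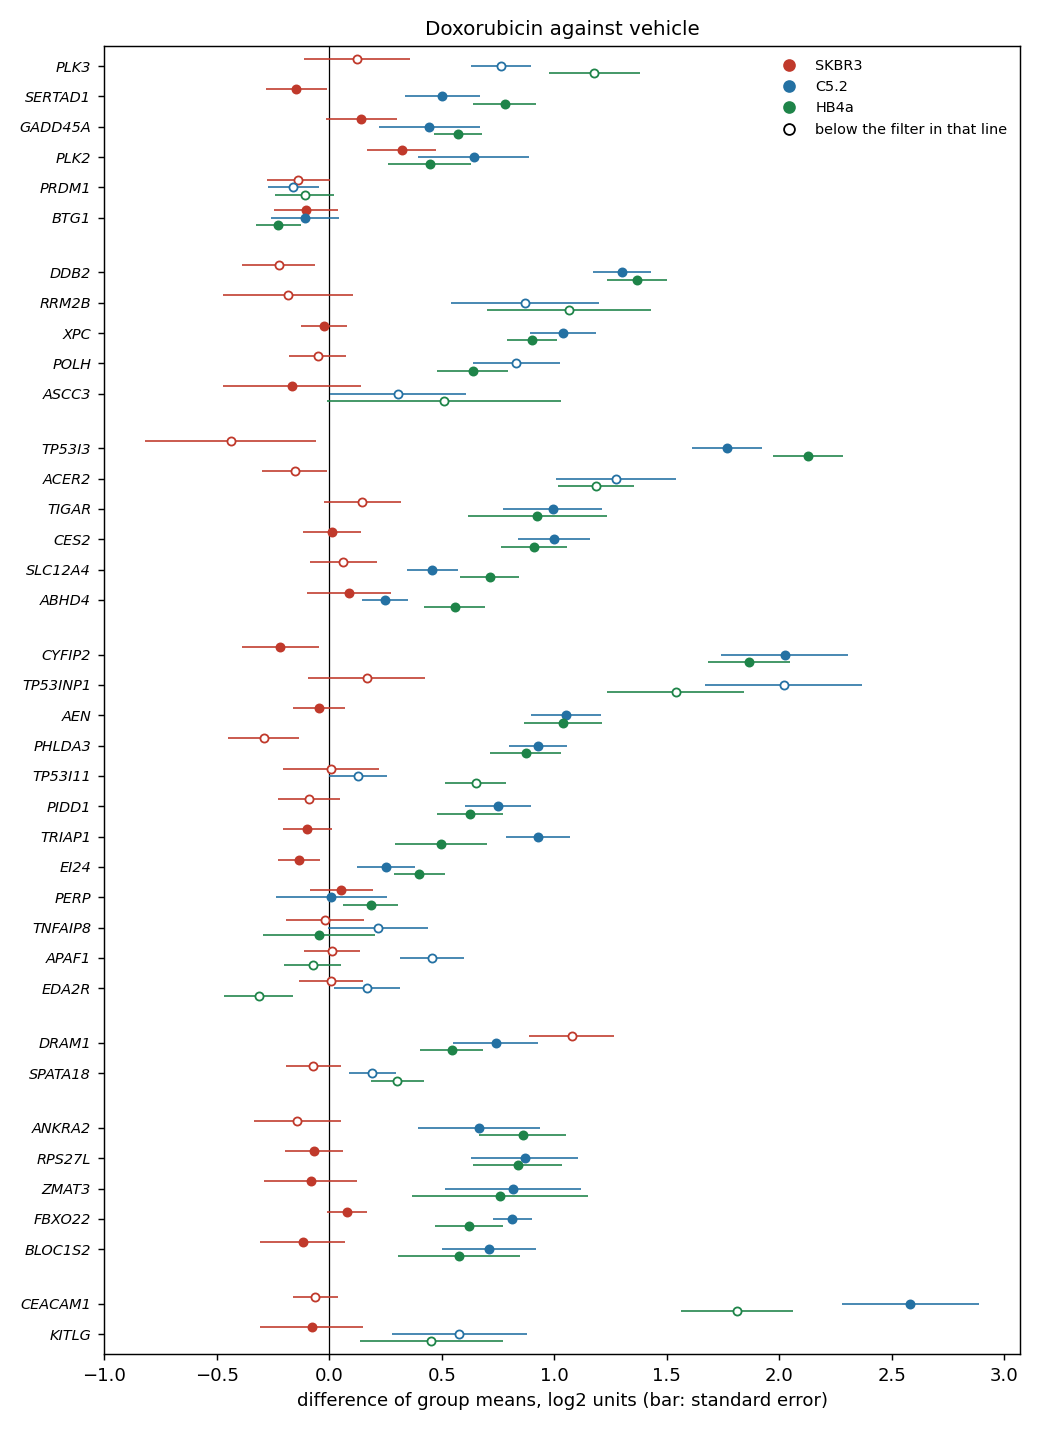
Difference between doxorubicin and vehicle group means in log2 units (horizontal axis, bars are the standard error from limma) for each member, grouped by role, in SKBR3, C5.2 and HB4a. Hollow points mark members under the filter in that line. TP53I3, CYFIP2 and DDB2 lie above 1 in C5.2 and HB4a, and the tested members in SKBR3 lie around 0.

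Among the genes of cell death and survival, CYFIP2 changed most. CYFIP2 is a subunit of the WAVE complex, which drives actin branching, and its human gene is known as a p53 target linked to apoptosis. It had 6.24, 5.65, 7.47, 7.13 and 7.46 in C5.2 with doxorubicin, against 4.10, 4.74, 5.02, 4.83 and 5.14 with vehicle. In HB4a CYFIP2 had 6.89, 7.41, 7.15, 7.49 and 8.0 with doxorubicin, against 5.56, 5.26, 5.52, 5.65 and 5.62 with vehicle. The groups did not overlap, although C5.2 doxorubicin arrays 1 and 2 lay below the other 3. CYFIP2 rose by 2.02 ± 0.28 in C5.2 (4.07-fold, adjusted p = 0.000181) and by 1.87 ± 0.18 in HB4a (3.65-fold, adjusted p = 5.08e-07).

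AEN, an apoptosis-enhancing nuclease, was also called in both lines. It had 6.34, 6.33, 6.58, 6.20 and 6.75 in C5.2 with doxorubicin, against 5.32, 5.71, 5.08, 5.45 and 5.38 with vehicle. In HB4a AEN had 7.08, 7.29, 6.92, 7.12 and 7.05 with doxorubicin, against 6.27, 6.54, 5.76, 5.82 and 5.87 with vehicle. All doxorubicin arrays were above the vehicle arrays, and AEN rose by 1.05 ± 0.16 in C5.2 (adjusted p = 0.000379) and 1.04 ± 0.17 in HB4a (adjusted p = 0.000478). PHLDA3, which competes with the survival kinase AKT for membrane lipids, rose by 0.93 ± 0.13 in C5.2 and 0.87 ± 0.16 in HB4a. PIDD1, a scaffold that activates a caspase after DNA damage, rose by 0.75 ± 0.15 in C5.2, where the groups overlapped, and by 0.63 ± 0.15 in HB4a. TRIAP1, a mitochondrial lipid transfer protein that favours survival, rose by 0.93 ± 0.14 in C5.2 (adjusted p = 0.00053) and differed by 0.50 ± 0.20 in HB4a (adjusted p = 0.129, or 0.00345 with the block).

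EI24, a membrane protein of the endoplasmic reticulum, rose by 0.40 ± 0.11 in HB4a (adjusted p = 0.0243) and differed by 0.25 in C5.2 (adjusted p = 0.392). The HB4a call of EI24 was lost when any 1 of 4 arrays was left out and under quantile normalization. PERP, a desmosome membrane protein with a part in apoptosis, was bright and differed by 0.01 in C5.2 and 0.18 ± 0.12 in HB4a. TNFAIP8, an inhibitor of apoptosis, differed by -0.05 ± 0.25 in HB4a. Under the filter, TP53INP1, a stress protein that acts in autophagy and cell death, rose in both lines with no filter, by 2.02 ± 0.35 in C5.2 (adjusted p = 0.0028) and by at least 1.16 in HB4a (adjusted p = 0.0038). TP53I11 rose by 0.65 ± 0.14 in HB4a (adjusted p = 0.0060) and differed by 0.13 in C5.2. APAF1, the core of the apoptosome, had group means between 2.30 and 2.76 in all 12 groups, and EDA2R, the ectodysplasin receptor, had group means between 1.06 and 1.91. Neither APAF1 nor EDA2R was called with doxorubicin, and EDA2R was at or near background.

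Of the growth arrest genes tested, 0 of 4 were called in C5.2, where 3.26% of all genes tested were called. In HB4a 2 of 4 rose, where 8.66% of all genes tested rose. With the block SERTAD1, GADD45A and PLK2 passed in C5.2 too, where 17.4% of all genes were called. SERTAD1, a cofactor of cell cycle transcription, rose by 0.78 ± 0.14 in HB4a (adjusted p = 0.000879) and differed by 0.50 ± 0.17 in C5.2 (adjusted p = 0.128, or 0.000611 with the block). GADD45A, a small damage-inducible protein that binds cell cycle and repair factors, had 8.67, 8.93, 8.55, 8.78 and 8.63 in HB4a with doxorubicin, against 8.27, 8.33, 8.06, 8.23 and 7.81 with vehicle. These groups did not overlap, and GADD45A rose by 0.57 ± 0.11 (adjusted p = 0.0012). In C5.2 GADD45A differed by 0.44 ± 0.23 (adjusted p = 0.386, or 0.000595 with the block). PLK2, a kinase of centriole duplication and the damage checkpoint, differed by 0.64 ± 0.25 in C5.2 and 0.45 ± 0.18 in HB4a, and passed in both with the block (0.000315 and 0.00693). BTG1, an antiproliferative factor that binds the deadenylase complex, ran the other way, with -0.11 in C5.2 and -0.23 ± 0.10 in HB4a (adjusted p = 0.153, or 0.0294 with the block).

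PLK3, a stress-responsive kinase, was under the filter and was the arrest gene with the widest change in HB4a. It had 4.21, 4.83, 4.60, 4.75 and 4.25 with doxorubicin, against 3.32, 4.14, 2.88, 3.37 and 3.05 with vehicle, so only the second vehicle array came near the doxorubicin arrays. With no filter PLK3 rose by 0.76 ± 0.13 in C5.2 (adjusted p = 0.0032) and 1.18 ± 0.20 in HB4a (adjusted p = 0.0010). PRDM1, a transcriptional repressor of lymphoid and epithelial differentiation, had group means between 2.70 and 3.27 in all 12 groups and was not called with doxorubicin.

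The remaining roles were the genes of autophagy, RNA, ubiquitin and adhesion. DRAM1, a lysosomal membrane protein of autophagy, had 6.04, 5.74, 6.47, 6.51 and 6.31 in C5.2 with doxorubicin, against 5.57, 5.37, 5.51, 5.42 and 5.52 with vehicle. In HB4a DRAM1 had 5.29, 5.49, 5.38, 5.37 and 5.50 with doxorubicin, against 5.11, 4.76, 4.95, 4.83 and 4.65 with vehicle. The groups were apart in both lines, and DRAM1 rose by 0.74 ± 0.19 in C5.2 (adjusted p = 0.0337, lost when any 1 of 8 arrays was left out) and by 0.54 ± 0.14 in HB4a (adjusted p = 0.0133). SPATA18, which acts in mitochondrial quality control, had group means between 0.49 and 1.63, at or near background, and was not called with doxorubicin. ANKRA2, an ankyrin-repeat scaffold, had 5.66, 5.49, 5.22, 5.32 and 5.41 in HB4a with doxorubicin, against 4.98, 4.47, 4.38, 4.48 and 4.5 with vehicle. Its groups were apart, with the first vehicle array highest, and ANKRA2 rose by 0.86 ± 0.19 (adjusted p = 0.00638). In C5.2 ANKRA2 differed by 0.66 ± 0.27 (adjusted p = 0.245, or 0.00179 with the block).

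RPS27L, a ribosomal protein paralogue, rose by 0.87 ± 0.24 in C5.2 (adjusted p = 0.0496) and 0.84 ± 0.20 in HB4a, with overlapping groups in both. The C5.2 call of RPS27L was lost when any 1 of 8 arrays was left out. It was also lost with no filter, under median centring and with eBayes without trend. FBXO22, the substrate-binding subunit of a ubiquitin ligase, rose by 0.81 ± 0.09 in C5.2 (adjusted p = 1.1e-05) and 0.62 ± 0.15 in HB4a (adjusted p = 0.01). ZMAT3, an RNA-binding zinc finger protein, differed by 0.82 ± 0.30 in C5.2 and 0.76 ± 0.39 in HB4a, and BLOC1S2, a subunit of a complex that positions lysosomes, by 0.71 ± 0.21 in C5.2 and 0.58 ± 0.27 in HB4a, none of which passed. CEACAM1, a cell adhesion receptor, had the widest called change of any member in C5.2, with 4.43, 4.06, 5.31, 4.87 and 5.58 with doxorubicin, against 2.24, 2.17, 1.83, 2.13 and 2.97 with vehicle. It rose by 2.58 ± 0.30 there, a 5.99-fold change (adjusted p = 2.84e-05). In HB4a CEACAM1 had 4.30, 4.95, 4.19, 3.84 and 4.52 with doxorubicin, against 2.78, 3.05, 2.5, 2.26 and 2.14 with vehicle, stayed under the filter, and with no filter rose by 1.81 ± 0.25 (adjusted p = 0.0001). The CEACAM1 arrays were apart by group in both lines, from low vehicle levels, and its 4 other probe sets, all dim, differed by -0.05 to 0.65 in C5.2. KITLG, the ligand of the receptor KIT, differed by 0.58 in C5.2 and 0.45 in HB4a without passing.

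In SKBR3 doxorubicin left these genes near their vehicle levels. CYFIP2, one of the genes with the widest rise in C5.2 and HB4a, had 5.75, 6.28, 6.44, 6.40 and 6.35 with doxorubicin, against 5.99, 6.50, 6.65, 6.64 and 6.53 with vehicle. DDB2 had 3.72, 3.55, 3.59, 3.37 and 3.15 with doxorubicin, against 3.75, 3.65, 4.20, 3.50 and 3.40 with vehicle. TP53I3 had 2.92, 3.27, 2.75, 2.37 and 1.88 with doxorubicin, against 2.70, 2.81, 5.24, 2.27 and 2.34 with vehicle, the high value being on the vehicle array that stood apart. The groups of CYFIP2, DDB2 and TP53I3 overlapped in SKBR3.

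CEACAM1 did not exceed 1.01 on any SKBR3 array, which is background. Over the 18 members tested in SKBR3, the 95% intervals of the difference reached from -0.80 (ASCC3) to 0.64 (PLK2), the lowest adjusted p was 0.684 (PLK2, 0.32 ± 0.15), and 6 differences were positive. AEN had 4.99, 5.01, 5.13, 5.15 and 5.19 with doxorubicin, against 4.94, 5.18, 5.32, 5.04 and 5.22 with vehicle. The exception was DRAM1, which lay under the filter with 3.16, 3.15, 2.44, 2.80 and 3.0 with doxorubicin, against 1.75, 2.15, 2.16, 1.43 and 1.67 with vehicle. Its groups were apart, and with no filter DRAM1 rose by 1.08 ± 0.19 in SKBR3 (adjusted p = 0.0038).

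The difference between lines in the doxorubicin response was then tested itself, with the change in one line set against that in the other. Against HB4a, 13 of 28 members had a lower response in SKBR3 and 0 a higher one, where 3.87% of all 7270 genes differed and 2.76% were lower. With the block the count was 20 (15.9% of all genes). Against C5.2, 11 of 27 were lower in SKBR3 and 0 higher, where 1.47% of 7324 genes differed and 0.956% were lower, and the block gave 18 (8.23%). With no filter 14 of 38 had a lower response in SKBR3 than in HB4a (1.91% of all genes differed) and 13 of 38 a lower one than in C5.2 (0.834%). These comparisons share the SKBR3 arrays.

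CYFIP2 differed in response by -2.24 ± 0.34 between SKBR3 and C5.2 and by -2.08 ± 0.26 between SKBR3 and HB4a (adjusted p = 1.14e-06). DDB2 differed by -1.53 and by -1.59 ± 0.21 (adjusted p = 3.45e-06) in the same order. TP53I3 differed by -2.21 ± 0.45 (adjusted p = 0.00305) and -2.56 ± 0.45 (adjusted p = 0.000281), and without the third SKBR3 vehicle array by -1.66 and -2.02 (adjusted p = 8.097e-06 against HB4a). CEACAM1 differed by -2.64 ± 0.32 between SKBR3 and C5.2 (adjusted p = 1.42e-06). It was tested there only with the help of C5.2 arrays with doxorubicin, and its SKBR3 arrays were at background. In the fits of single lines, PHLDA3 and PIDD1 in C5.2 and ANKRA2, PIDD1 and POLH in HB4a also passed the filter only with doxorubicin arrays. All of these lay under the filter in SKBR3. The filter thus favoured genes with a lower response there, and the counts with no filter are given above. PHLDA3, AEN, XPC, CES2 and PIDD1 had a lower response in SKBR3 than in both lines, by -1.22 to -0.72. SERTAD1, RPS27L, ANKRA2, POLH and EI24 were also lower against HB4a, and TRIAP1 and FBXO22 against C5.2. Without the third SKBR3 vehicle array, ANKRA2, PIDD1, POLH and RPS27L no longer passed against HB4a, with adjusted p between 0.05095 and 0.06875, which left 9, and without the third HB4a vehicle array 8 passed.

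With the block, which the paired experiment numbers allow, 7 members were added to each comparison. Against C5.2 they were RPS27L, SERTAD1, TIGAR, BLOC1S2, ANKRA2, ZMAT3 and KITLG, with blocked adjusted p between 3.34e-05 (RPS27L) and 0.0467 (KITLG). Against HB4a they were TIGAR, TRIAP1, SLC12A4, FBXO22, ABHD4, GADD45A and ZMAT3, between 0.00352 (TIGAR) and 0.0471 (ZMAT3). ANKRA2, SERTAD1, RPS27L, TRIAP1 and FBXO22 then had a lower response in SKBR3 than in both lines. Among members that lay under the filter and were fitted without it, ACER2 responded less in SKBR3 than in C5.2 (-1.43, adjusted p = 0.0120) and HB4a (-1.34, adjusted p = 0.000246), TP53INP1 less than in C5.2 (-1.85, adjusted p = 0.0330) and CEACAM1 less than in HB4a (-1.87, adjusted p = 2.96e-05). These are fitted values in which some arrays at background take part.

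Between C5.2 and its parent HB4a no member was called for a difference in doxorubicin response. C5.2 is 1 clone, and line and processing batch cannot be told apart, so this comparison does not isolate the HER-2 cDNA. The count was 0 of 27 with limma, with 0 at an unadjusted p under 0.05 and 0 with the block, where 0.101% of 6962 genes differed. The estimates ran from -0.36 (TP53I3) to 0.77 (CEACAM1), and their 95% intervals reached from -0.99 (ZMAT3) to 1.59 (CEACAM1), so differences of up to those sizes were not shown to be absent. Of 24 members tested in both lines, 23 had a positive difference in both. In C5.2, 14 of the 24 were called and in HB4a 17, of which 12 were shared, 85.7% of the C5.2 calls and 70.6% of the HB4a calls. The 2 lists come from separate arrays, although some of these members passed the filter only with the help of arrays with doxorubicin. Of all genes tested, 3.26% were called in C5.2 and 11.4% in HB4a. The overlap over all genes is not given here, so this sharing is not shown to be particular to the members.

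Rapamycin alone called few members. In SKBR3, 1 of 18 rose and 3 fell, where 18.3% of all genes tested were called, and with the block 8 were called (2 higher, 6 lower, against 41.8%), the added ones being PERP, higher, and BLOC1S2, PLK2 and RPS27L, lower, with adjusted p between 0.000739 and 0.0284. In C5.2, 1 of 25 rose and 1 fell, with 8 at an unadjusted p under 0.05, where 17.4% of all genes were called. The block gave 12 in C5.2 (7 higher, 5 lower, against 44.2%). It added ANKRA2, BTG1, CEACAM1, GADD45A, PERP and RPS27L, higher, and AEN, DDB2, EI24 and SERTAD1, lower, with adjusted p between 1.17e-05 and 0.0345. In HB4a 1 of 26 rose, where 3.18% of all genes were called, and the block gave 7 (16.3%), all higher, adding ANKRA2, CYFIP2, PERP, RPS27L, TNFAIP8 and ZMAT3 with adjusted p between 0.00289 and 0.0497. The members' share was near that of all genes in SKBR3 and HB4a and below it in C5.2, so these counts say nothing particular about the members.

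GADD45A was the member that rose with rapamycin in HB4a. It had 9.09, 9.09, 9.13, 8.92 and 8.79 with rapamycin, against 8.27, 8.33, 8.06, 8.23 and 7.81 with vehicle, with no overlap. The rise was 0.86 ± 0.11 (adjusted p = 2.74e-05). In C5.2 GADD45A differed by 0.59 ± 0.23 (adjusted p = 0.0759, or 1.17e-05 with the block). ZMAT3 rose with rapamycin in C5.2, with 5.73, 4.99, 5.84, 6.25 and 6.04, against 5.13, 4.22, 5.16, 4.90 and 4.90 with vehicle, and the groups overlapped through the second rapamycin array. The rise of ZMAT3 was 0.91 ± 0.30 (adjusted p = 0.0428), and its call was lost when any 1 of 7 arrays was left out. That call was also lost with no filter, under median centring and in a joint fit of the 60 arrays. FBXO22, which rose with doxorubicin in C5.2, fell there with rapamycin, with 5.82, 5.74, 5.48, 5.50 and 5.68, against 6.16, 6.09, 6.06, 6.06 and 6.15 with vehicle. FBXO22 fell by 0.46 ± 0.09 on the log2 scale (adjusted p = 0.00179).

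With rapamycin in SKBR3, AEN, TRIAP1 and FBXO22 fell and BTG1 rose. AEN had 4.73, 4.58, 4.79, 4.8 and 4.70 with rapamycin, against 4.94, 5.18, 5.32, 5.04 and 5.22 with vehicle, and fell by 0.42 ± 0.12 (adjusted p = 0.0153). TRIAP1 had 6.16, 6.16, 6.0, 6.11 and 5.71 with rapamycin, against 6.54, 6.34, 6.37, 6.40 and 6.24 with vehicle, and fell by 0.35 ± 0.11 (adjusted p = 0.0296). The AEN and TRIAP1 groups did not overlap. FBXO22 fell by 0.30 ± 0.09 (adjusted p = 0.0246). BTG1 had 7.60, 7.75, 7.38, 7.40 and 6.97 with rapamycin, against 7.10, 7.14, 7.03, 7.04 and 6.65 with vehicle. Experiment 6 was the lowest in both BTG1 groups, which overlapped through it, and BTG1 rose by 0.43 ± 0.14 (adjusted p = 0.0412). BTG1 lost its call when any 1 of 8 arrays was left out, TRIAP1 with 5 and FBXO22 with 3, and each of these genes also lost it with no filter. Without the third vehicle array AEN was called (adjusted p = 0.0474), and TRIAP1 (0.0516), BTG1 (0.0623) and FBXO22 (0.0715) were not. Over all 38 members with no filter, 1 rose and 2 fell (5.58% of all genes called), among them ANKRA2, which rose by 0.69 (adjusted p = 0.0345), and POLH, which fell by 0.46 (adjusted p = 0.0322).

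**Figure D3:**
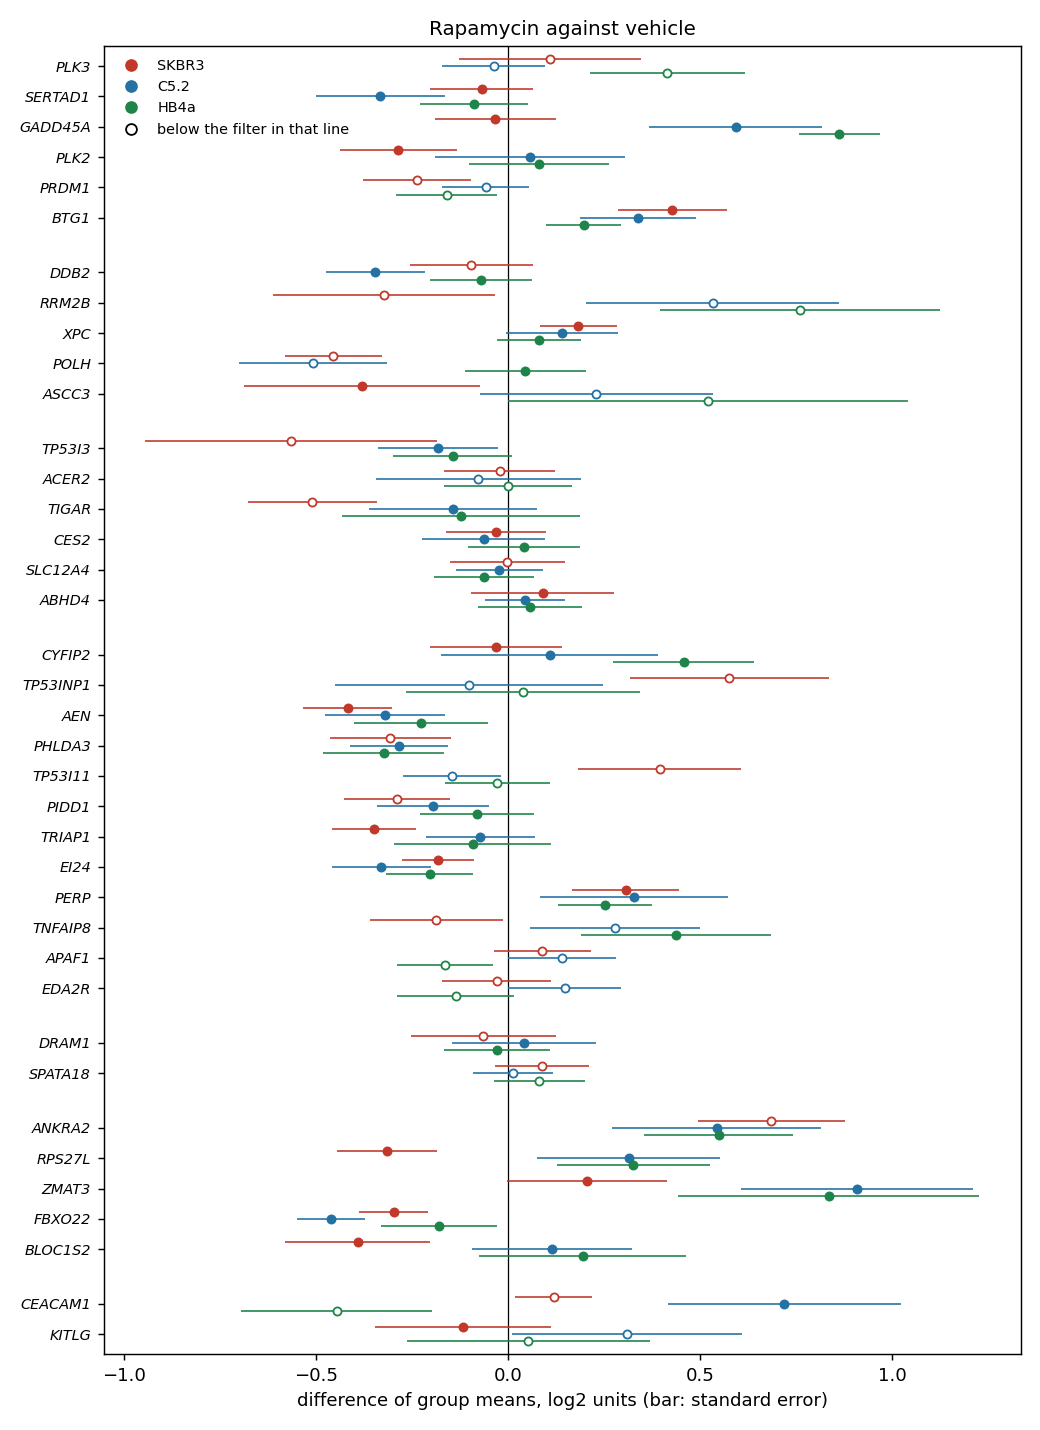
Difference between rapamycin and vehicle group means in log2 units (horizontal axis, bars are the standard error from limma) for each member by role, in SKBR3, C5.2 and HB4a, with hollow points under the filter. Most members lie within 0.5 of 0, and GADD45A in HB4a and ZMAT3 in C5.2 lie near 0.9.

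Given together, the drugs raised many members in C5.2 and HB4a and few in SKBR3. Against vehicle with no filter, 1 of 38 rose and 2 fell in SKBR3 (7.17% of all genes called), 23 rose and 0 fell in C5.2 (6.79% of all genes called), and 22 rose and 0 fell in HB4a (7.34%). Past the filter, 0 of 18 rose and 2 fell in SKBR3, where 22% of all genes were called. The 2 were TRIAP1 and BLOC1S2, which fell by 0.44 ± 0.11 (adjusted p = 0.00783) and 0.55 ± 0.19 (adjusted p = 0.0419), the BLOC1S2 groups overlapping and its call being lost without the third vehicle array (adjusted p = 0.0695). With the block 10 were called in SKBR3 (2 higher, 8 lower, against 50.5%). It added BTG1 and PERP, higher, and ASCC3, CYFIP2, EI24, FBXO22, RPS27L and ZMAT3, lower, with adjusted p between 0.000426 and 0.0482. Fitted with no filter in SKBR3, DRAM1 rose by 0.73 (adjusted p = 0.0193) and POLH fell by 0.53 (adjusted p = 0.0115). In C5.2, 19 of 25 rose and 0 fell, where 21% of all genes were called and 6.42% rose. In HB4a, 17 of 26 rose and 0 fell, where 17.4% were called and 10.9% rose.

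In C5.2 the pair raised CEACAM1 by 2.87 ± 0.30, CYFIP2 by 2.20 ± 0.28, TP53I3 by 1.70 ± 0.16 and DDB2 by 1.08. ZMAT3 and ANKRA2, which doxorubicin alone did not call there, rose by 1.37 ± 0.30 (adjusted p = 0.00325) and 1.26 ± 0.27 (adjusted p = 0.00284). In HB4a the pair raised CYFIP2 by 2.00 ± 0.18 (adjusted p = 1.51e-07), TP53I3 by 1.82 ± 0.16 (adjusted p = 6.33e-08), ANKRA2 by 1.16 ± 0.19 and GADD45A by 1.07 ± 0.11 (adjusted p = 4.72e-07). PERP, which doxorubicin alone did not call in HB4a, rose by 0.42 ± 0.12 (adjusted p = 0.0188). ZMAT3 rose there by 1.19 ± 0.39 (adjusted p = 0.0382), with overlapping groups. Its call was lost when any 1 of 6 arrays was left out, with no filter and under quantile normalization. RRM2B, under the filter, rose with the pair by 1.18 in C5.2 (adjusted p = 0.0319) and 1.54 in HB4a (adjusted p = 0.0102).

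Rapamycin added to doxorubicin changed few members further. In SKBR3, 1 of 18 rose and 2 fell against doxorubicin alone, where 22% of all genes were called, and the block gave 8 (49.6%), adding PERP, higher, and ASCC3, BLOC1S2, PLK2 and RPS27L, lower, with adjusted p between 0.00274 and 0.0324. With no filter 1 of 38 rose and 2 fell (7.17% of all genes called), among them TIGAR, which fell by 0.68 (adjusted p = 0.0144), and POLH, which fell by 0.48 (adjusted p = 0.0228). BTG1 had 7.22, 7.73, 7.48, 7.29 and 7.06 with both drugs, against 6.80, 7.01, 6.85, 7.09 and 6.68 with doxorubicin, and rose by 0.47 ± 0.14 (adjusted p = 0.023). TRIAP1 had 6.05, 6.08, 5.86, 5.92 and 5.80 with both, against 6.58, 6.38, 6.05, 6.17 and 6.22 with doxorubicin, and fell by 0.34 ± 0.11 (adjusted p = 0.0316). FBXO22 had 5.45, 5.32, 5.2, 5.34 and 5.44 with both, against 5.77, 5.73, 5.60, 5.49 and 5.54 with doxorubicin, and fell by 0.28 ± 0.09 (adjusted p = 0.0329). The BTG1 and TRIAP1 groups overlapped and those of FBXO22 did not, and the count of 3 was 0 without doxorubicin array 1 or without combined array 3, 1 without doxorubicin array 2, and 7 without combined array 4.

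In C5.2, 0 of 25 members differed between both drugs and doxorubicin alone with limma, with 2 at an unadjusted p under 0.05, where 13.5% of all genes were called. The block gave 6 (5 higher, 1 lower, against 38.0%), namely GADD45A (0.000233), ANKRA2 (0.00169), PERP (0.00181), ZMAT3 (0.00673) and BTG1 (0.0243), higher, and FBXO22 (0.0249), lower, and 1 was called without combined array 2. In HB4a, GADD45A was the 1 of 26 that rose, where 2.58% of all genes were called. It had 9.35, 9.31, 9.20, 9.25 and 8.97 with both drugs, against 8.67, 8.93, 8.55, 8.78 and 8.63 with doxorubicin, apart by group, and rose by 0.50 ± 0.11 (adjusted p = 0.0108). GADD45A was called in HB4a with each drug alone and with the pair, although these contrasts share arrays.

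Doxorubicin added to rapamycin gives the size of its effect a second time on other arrays, since this difference uses no vehicle and no single-doxorubicin array. The filter and the variance behind the calls come from all 20 arrays of the line, so the calls are not separate. With no filter, 0 of 38 members were called in SKBR3 (0.263% of all genes called). By the same rule 20 rose and 0 fell in C5.2 (2.3%), and 18 rose and 0 fell in HB4a (2.99%). Past the filter, 0 of 18 members in SKBR3 were called with limma (2 at an unadjusted p under 0.05), where 0.552% of all genes were called. There the block called ZMAT3 (-0.60, adjusted p = 0.02, against 6.64% of all genes). In C5.2, 16 of 25 rose and 0 fell, where 6.39% of all genes were called and 4.82% rose, and the block gave 23, with 22 higher and BTG1 lower (22.2%), adding ANKRA2, DRAM1, GADD45A, PLK2, RPS27L, ZMAT3 and BTG1 with adjusted p between 3.93e-05 and 0.0306. In HB4a, 14 of 26 rose and 0 fell, where 8.84% were called and 5.66% rose.

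The calls without the block were then set side by side over members past the filter. Of these, 5 in C5.2 and 6 in HB4a passed only with the help of arrays with doxorubicin, which favours genes high there. In C5.2, 13 members were called both ways, 86.7% of the 15 with doxorubicin alone and 81.2% of the 16 on top of rapamycin. DRAM1 and RPS27L were called with doxorubicin alone and BLOC1S2, EI24 and SERTAD1 on top of rapamycin. In HB4a, 14 were called both ways, 77.8% of 18 and 100.0% of 14, and ABHD4, ANKRA2, GADD45A and PIDD1 were called with doxorubicin alone. Across members the 2 estimates correlated at r = 0.951 over 25 in C5.2 and 0.952 over 26 in HB4a, and differed by a median of 0.12 in C5.2 and 0.113 in HB4a. In SKBR3 r was 0.609 over 18, around differences close to 0. These correlations are over genes of the same cultures and are descriptions. The same overlaps and correlations over all genes are not given here, so they are not shown to be particular to the members. On top of rapamycin CEACAM1 rose by 2.15 ± 0.30 in C5.2 (adjusted p = 0.000122), TP53I3 by 1.88 ± 0.16 in C5.2 (adjusted p = 2.14e-07) and 1.97 ± 0.16 in HB4a (adjusted p = 1.21e-07), and FBXO22 by 1.06 ± 0.09 in C5.2 (adjusted p = 2.14e-07).

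**Figure D4:**
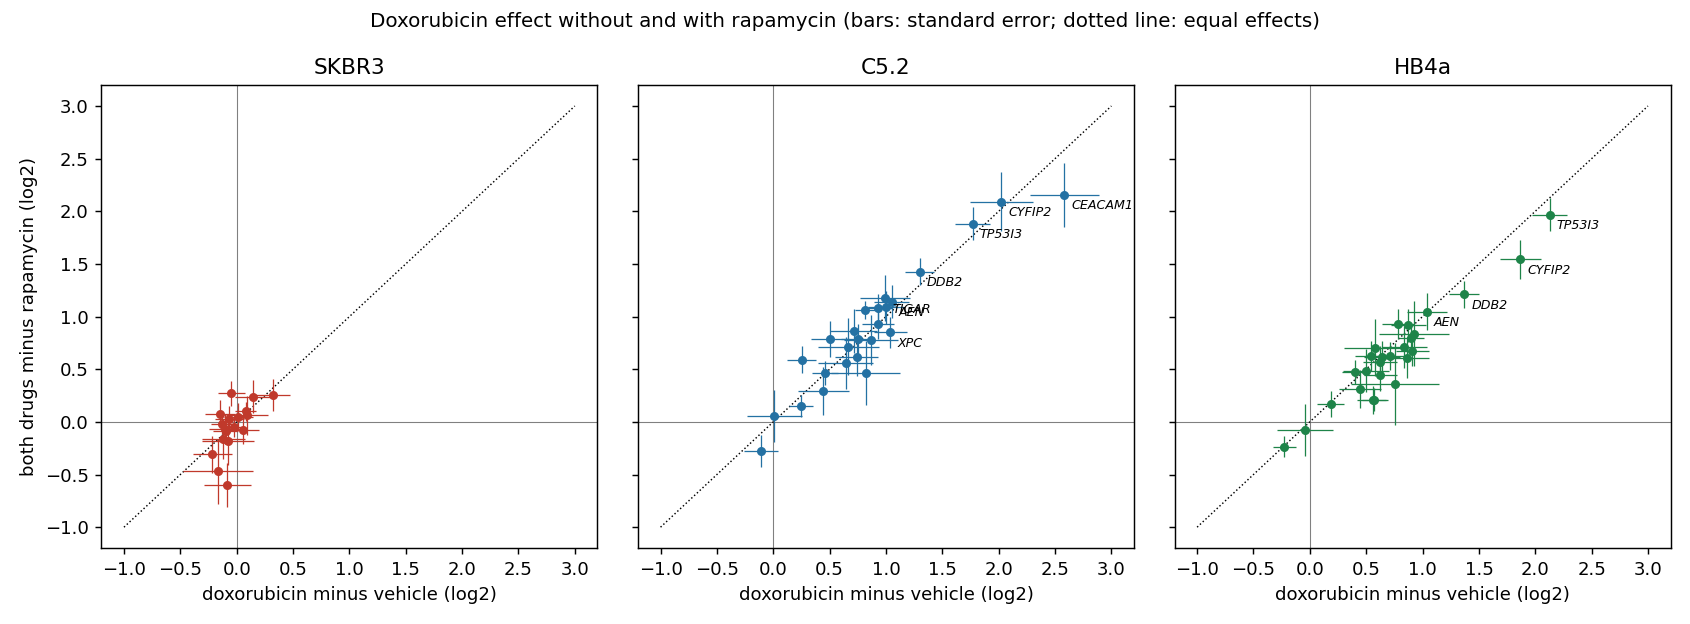
Doxorubicin against vehicle (horizontal axis) and both drugs against rapamycin (vertical axis), in log2 units, with a point per tested member (bars are standard errors) and a panel each for SKBR3, C5.2 and HB4a, the dotted line marking equal effects. The points follow the line of equality in C5.2 and HB4a, out to about 2, and gather around 0 in SKBR3.

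The departure of the pair from the sum of the single effects was tested in each line and called 0 members. Among all genes 0% were called in SKBR3, 0% in C5.2 and 0% in HB4a. At an unadjusted p under 0.05 there were 0 members in SKBR3, 0 in C5.2 and 1 in HB4a. The estimates for members ran from -0.52 (ZMAT3) to 0.32 (AEN) in SKBR3, from -0.43 (CEACAM1) to 0.34 (EI24) in C5.2, and from -0.40 (ZMAT3) to 0.15 (SERTAD1) in HB4a.

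In vehicle many members differed between the lines, and so did many of all genes. Against HB4a, 3 of 28 members were higher and 19 lower in SKBR3, where 77.3% of 7270 genes differed, 37.6% higher and 39.7% lower, so the 22 called lay near the share of all genes. With no filter 4 of 38 were higher and 20 lower (62.1% of all genes differed). The median over the tested members was -0.87, against -0.02 over all genes, and centring each array on its median moved the all-gene median to 0.17. TP53I3 had 2.70, 2.81, 5.24, 2.27 and 2.34 in SKBR3, against 7.56, 7.19, 7.31, 6.88 and 7.16 in HB4a. It was lower by -4.15 ± 0.31 in SKBR3 (adjusted p = 1.05e-14), or -4.69 without the SKBR3 array that stood apart. TNFAIP8 had 2.15, 1.09, 1.68, 1.27 and 1.21 in SKBR3, 3 of them at background, against 5.35, 4.34, 4.83, 4.53 and 4.86 in HB4a, and was lower in SKBR3 by at least 3.11 (adjusted p = 4.75e-16). DDB2 differed by -2.78 ± 0.15 (adjusted p = 2.49e-19), DRAM1 by -3.03, GADD45A by -2.30, SLC12A4 by -1.88, PHLDA3 by -1.87 and BTG1 by -1.64.

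Other members that were lower in SKBR3 than in HB4a were TIGAR (-1.46), FBXO22 (-1.40), POLH (-1.34), TRIAP1 (-1.08), AEN (-0.91), RPS27L (-0.90) and CES2 (-0.85). PERP (-0.47), ANKRA2 (-0.43), PLK2 (-0.37) and XPC (-0.29) completed the 19, and these 4 lost their calls under some alternative settings, PERP and XPC under median centring, and PLK2 without the third SKBR3 vehicle array (adjusted p = 0.0516). Among members under the filter, fitted without it, CEACAM1 was lower in SKBR3 by at least 1.05 (adjusted p = 7.91e-12) and EDA2R by at least 0.41 (adjusted p = 0.00047), and TP53I11 was 1.06 higher (adjusted p = 3.47e-06). SPATA18 was at background in the vehicle arrays of both lines and is given no size. Against the majority, KITLG had 6.51, 6.06, 6.25, 6.50 and 5.88 in SKBR3, against 3.15, 2.04, 2.36, 2.26 and 2.29 in HB4a, and was 3.82 ± 0.29 higher (14.1-fold, adjusted p = 1.54e-14). ASCC3 had 5.86, 4.36, 4.99, 5.38 and 4.53 in SKBR3, against 4.01, 1.78, 2.24, 2.03 and 2.80 in HB4a, and was 2.45 ± 0.46 higher (adjusted p = 8.64e-06). Its other probe set, near background, averaged 1.62 over all SKBR3 arrays and 1.51 over all HB4a arrays, so the ASCC3 difference rests on 1 probe set. CYFIP2 was 0.94 ± 0.18 higher in SKBR3 (adjusted p = 1.85e-05). The KITLG, ASCC3 and CYFIP2 arrays of the 2 lines did not overlap. The 3 basal markers measured summed to 2.79 to 5.76 in SKBR3, against 19.0 to 19.9 in HB4a, and their part in these differences was not tested.

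Between C5.2 and HB4a in vehicle, 6 of 27 members were higher in C5.2 and 8 lower, where 49.2% of 6962 genes differed, 29.3% higher and 19.9% lower, so the 14 called lay near the share of all genes. With no filter 8 of 38 were higher and 13 lower (40.3% of all genes differed). The block gave 15 (58.2%), with TNFAIP8 added (adjusted p = 0.029). CES2 had 4.96, 5.45, 5.39, 5.41 and 5.52 in C5.2, against 6.12, 6.20, 6.48, 6.41 and 6.43 in HB4a, and was lower by -0.98 ± 0.16 (adjusted p = 1.91e-06). FBXO22 had 6.16, 6.09, 6.06, 6.06 and 6.15 in C5.2, against 7.30, 7.22, 6.70, 6.77 and 6.76 in HB4a, and was lower by -0.84 ± 0.13 (adjusted p = 5.38e-07). DDB2 was lower by -0.79 ± 0.13 (adjusted p = 4.23e-06). The CES2, FBXO22 and DDB2 groups did not overlap.

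CYFIP2 (-0.76 ± 0.25), SERTAD1 (-0.67), AEN (-0.67), PHLDA3 (-0.59) and POLH (-0.57) were also lower in C5.2 than in HB4a. Those higher in C5.2 were DRAM1 (0.62 ± 0.16), PLK2 (0.59 ± 0.22), BTG1 (0.54 ± 0.13), TP53I3 (0.48 ± 0.16), EI24 (0.44 ± 0.12) and SLC12A4 (0.28 ± 0.12). BTG1 had 9.09, 8.89, 9.37, 9.10 and 9.41 in C5.2, against 8.68, 8.39, 8.70, 8.78 and 8.59 in HB4a, and EI24 had 8.17, 8.28, 8.13, 8.09 and 8.20, against 7.60, 7.82, 7.59, 7.82 and 7.85. Neither pair overlapped. PLK2 had 5.86, 5.56, 6.06, 6.19 and 5.64 in C5.2, against 5.72, 5.10, 5.35, 5.29 and 4.92 in HB4a, and overlapped through the first HB4a array, as TP53I3 did through its first C5.2 array. SLC12A4 had 4.97, 5.21, 5.15, 5.33 and 5.05 in C5.2, against 4.96, 4.91, 4.95, 4.59 and 4.89 in HB4a, and lost its call under quantile normalization, where its difference was 0.14, with no filter, in a single fit of all arrays and when any 1 of 6 arrays was left out. PLK2 lost its call when any 1 of 4 arrays was left out and under quantile normalization. Among members under the filter, fitted without it, KITLG was 0.96 higher in C5.2 (adjusted p = 0.0158), TP53I11 0.50 higher (adjusted p = 0.0019) and TP53INP1 at least 0.60 higher (adjusted p = 0.0206). PLK3 was lower by -0.71 (adjusted p = 0.0011) and PRDM1 by -0.40 (adjusted p = 0.0058), and EDA2R was lower by at least 0.29 (adjusted p = 2e-05). APAF1 was lower by -0.43 (adjusted p = 0.0084) at the probe set used, which averaged 2.53 over all C5.2 arrays and 2.64 over all HB4a arrays. Another APAF1 probe set ran the other way, at 3.18 in C5.2 and 2.32 in HB4a, so the direction for APAF1 is not settled. SPATA18 was again at background in both lines. The basal markers summed to 11.97 to 14.9 in C5.2 and 19.0 to 19.9 in HB4a, and here too their part was not tested.

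**Figure D5:**
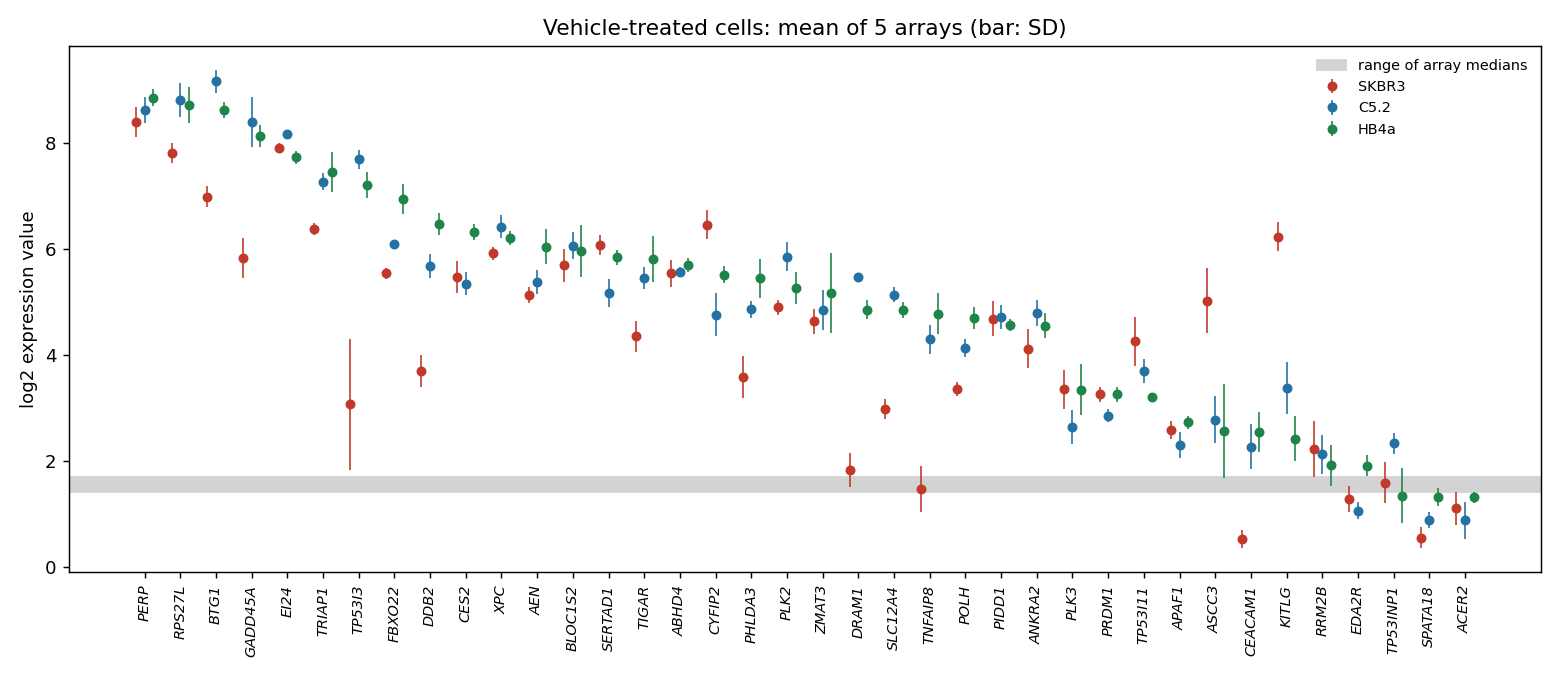
Mean log2 level in vehicle (bars are the SD, n = 5 arrays) of the 38 members in SKBR3, C5.2 and HB4a, with a grey band for the range of array medians, 1.41 to 1.71. SKBR3 lies below HB4a for TP53I3, TNFAIP8, DRAM1 and DDB2 and above it for KITLG and ASCC3.

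Other probe sets of the same genes gave a further reading, since 23 members had more than 1. For doxorubicin in C5.2, 8 called members had 19 other probe sets, of which 14 moved in the same direction, and 9 of the 10 brighter than log2 3 did. In HB4a, 10 called members had 22, of which 18 moved in the same direction, and 13 of 14 of the brighter ones. SLC12A4 was the member whose probe sets disagreed in both lines.

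The rest of the p53 pathway set these genes in context. CDKN1A, the inhibitor of cyclin-dependent kinases that executes p53-dependent arrest, averaged 4.84 with doxorubicin (4.59 to 5.16) and 4.79 with vehicle in SKBR3, or 4.34 (3.99 to 4.66) without the third vehicle array, which moves the difference to 0.49 with no test made. It averaged 8.74 with doxorubicin and 6.60 with vehicle in C5.2, and 10.05 with doxorubicin and 8.30 with vehicle in HB4a. It rose by 2.14 ± 0.20 in C5.2 (adjusted p = 1.63e-06) and by 1.75 ± 0.16 in HB4a (adjusted p = 2.46e-07). GDF15, a secreted stress cytokine, rose by 2.93 ± 0.24 in C5.2 and 2.77 ± 0.25 in HB4a. MDM2 differed by -0.16 ± 0.23 in SKBR3, and rose by 1.51 ± 0.39 in C5.2 (adjusted p = 0.0353) and 1.27 ± 0.34 in HB4a (adjusted p = 0.019). Of 24 other p53 targets with a value, 0 of 9 tested were called in SKBR3, 11 of 18 rose in C5.2, and 15 of 19 rose in HB4a with IGFBP3 falling, where 0.837% of all genes tested were called in SKBR3, 3.26% in C5.2 and 11.4% in HB4a. Of 16 genes that regulate p53, 0 of 9 tested in SKBR3, 0 of 10 in C5.2 and 0 of 9 in HB4a were called. Among 20 cell cycle genes, 0 of 18 were called in SKBR3, CCNB2 rose and MCM6 fell among 18 in C5.2, and TYMS rose and CCNB1, MCM4, MCM5 and MCM6 fell among 19 in HB4a, against the same shares of all genes.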

How the data were processed

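Per the submitters' processing notes, the deposited values are log2 probe set summaries made with RMA, with no version named. Base 2 was inferred from the range, -0.60 to 13.08, whose floor is lower than RMA usually gives. Whether a single run covered all 60 arrays is not given in the sources used here. Arrays are counted by their experiment number (1, 2, 3, 4 and 6). The vehicle group was read from the source names, which give DMSO, because its short label is used elsewhere for the drug pair, and doses were read as nM from the same field.

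Of 54675 probe sets, 41091 carried 1 symbol in the platform annotation, updated by gene identifier. Those with several symbols (1801) or unnamed here (11777) were dropped, and a few genes are not analysed here. The brightest probe set on average stood for each of 19775 genes. The 40 members and all other lists were chosen with earlier results of these data known.

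Tests used limma 3.58.1 in R 4.3.3 (lmFit, eBayes with trend, 2-sided) on 20 arrays within a line or 40 for a pair of lines, with Benjamini-Hochberg adjustment over all genes past the filter (log2 over 5 on at least 5 arrays). The script recovered changes planted in simulated data. Other software was matplotlib 3.10.9, numpy 2.4.6, pandas 2.3.3, Python 3.11.15 and the R package data.table (version 1.17.8). The depth of an array is not a read count, so the 5 arrays per group limit the precision. p-values cover the spread between independent experiments.

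All groups share the same experiment numbers. Arrays with a common number counted as pairs if the residuals of each pair correlated by more than 0.1. This was so for all SKBR3 contrasts (lowest 0.238), for HB4a doxorubicin or rapamycin against vehicle (0.428 and 0.461), for C5.2 contrasts other than both against vehicle (lowest 0.105), for C5.2 against HB4a in vehicle (0.163) and for the response differences (lowest 0.122). It was not so for HB4a contrasts with the combined group (lowest -0.569), C5.2 both against vehicle (-0.100) and SKBR3 against HB4a in vehicle (-0.116).

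Values per array were given for the 5 members with the widest called, non-overlapping doxorubicin change in a line, the widest in each role in HB4a, up to 3 called in each other contrast, and called members that went against the majority. Tried in place of these settings were a log2 filter of 7 or none, averaging of a gene's probe sets, quantile normalization, median centring, array weights, eBayes without trend, a block for experiment number, a joint fit of the 60 arrays, and leaving out each array. Chosen after the data were seen were leaving out the arrays that stood apart and leaving out SKBR3 vehicle array 3.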

Additional observations from a re-analysis of the deposited data

Results flagged for a closer look

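On 11 of the 73 groups of 5 examined, the highest or lowest array lay far from the other 4 by Dixon's test at 95%, where chance gives about 1 in 20. In SKBR3, TP53I3 was 5.24 on vehicle array 3 with the next array at 2.81, BTG1 was 6.65 on vehicle array 6 with the next at 7.03, and CYFIP2 was 5.75 on doxorubicin array 1 and 5.99 on vehicle array 1, with the next at 6.28 and 6.50. In C5.2, CES2 was 4.96 on vehicle array 1 (next 5.39) and ZMAT3 was 4.22 on vehicle array 2 (next 4.90). In HB4a, TP53I3 was 9.87 on doxorubicin array 6 (next 9.33) and CES2 was 6.89 on doxorubicin array 1 (next 7.26). Also in HB4a, ANKRA2 was 4.98 on vehicle array 1 (next 4.5), KITLG was 3.15 on vehicle array 1 (next 2.36), and SLC12A4 was 4.59 on vehicle array 4 (next 4.89). On SKBR3 vehicle array 3, CDKN1A was 6.59 and GDF15 5.84, against at most 4.66 and 2.49 on the other SKBR3 vehicle arrays, and LGALS3 was 6.61, against 0.94 to 1.58.

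The doxorubicin response differed between lines, by limma's test of the difference, for members of both SKBR3 comparisons. SKBR3 minus C5.2 was -2.64 for CEACAM1, -2.24 for CYFIP2, -2.21 for TP53I3, -1.53 for DDB2, -1.22 for PHLDA3, -1.10 for AEN, -1.06 for XPC, -1.03 for TRIAP1, -0.99 for CES2, -0.84 for PIDD1 and -0.74 for FBXO22. SKBR3 minus HB4a was -2.56 for TP53I3, -2.08 for CYFIP2, -1.59 for DDB2, -1.16 for PHLDA3, -1.09 for AEN, -1.0 for ANKRA2, -0.93 for SERTAD1, -0.92 for XPC, -0.90 for RPS27L, -0.90 for CES2, -0.72 for PIDD1, -0.69 for POLH and -0.53 for EI24. The TP53I3 values rest in part on SKBR3 vehicle array 3, and were -1.66 against C5.2 and -2.02 against HB4a without it. For CEACAM1 the SKBR3 arrays were at background. The limit from the filter given above for PHLDA3, PIDD1, ANKRA2 and POLH holds here too.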

How the results depend on the processing

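Of 172 called member results, 135 kept direction and call under every alternative run in which the gene was tested. A gene that a run's filter dropped, as at log2 7, is not counted as lost there. Over 3597 values of called results, 3363 kept both, 234 lost the call and 0 turned direction. Among uncalled results, 317 of 8569 values gained a call. The counts of called members that moved by over 1.5 times follow. With a filter at log2 7, which tests fewer genes, doxorubicin called 5 in C5.2 and 10 in HB4a, rapamycin 1 in SKBR3 and 0 in C5.2, both against vehicle 0 in SKBR3, 7 in C5.2 and 9 in HB4a, both against doxorubicin 1 in SKBR3, and both against rapamycin 7 in C5.2 and 9 in HB4a. With that filter the lines in vehicle gave 12 for SKBR3 and 8 for C5.2, both against HB4a, and the response differences 8 for SKBR3 minus HB4a and 4 for SKBR3 minus C5.2. The mean of probe sets gave 2 for rapamycin in SKBR3 and 2 in HB4a, 4 for both against vehicle and 1 for both against doxorubicin in SKBR3. Array weights gave 10 for rapamycin in C5.2 and 2 in HB4a, 5 for both against doxorubicin in SKBR3, 9 in C5.2 and 3 in HB4a, 7 for both against vehicle and 1 for both against rapamycin in SKBR3, and 18 for SKBR3 minus C5.2. One fit of all 60 arrays gave 1 for doxorubicin in SKBR3, 5 for rapamycin in C5.2, 0 for both against doxorubicin in HB4a and 1 for both against rapamycin in SKBR3. No filter gave 1 for doxorubicin in SKBR3 and 1 for rapamycin in C5.2, and median centring 1 for rapamycin in C5.2. Quantile normalization gave 4 for rapamycin in C5.2 and 2 in SKBR3, with 4 for both against vehicle and 1 for both against doxorubicin in SKBR3. The causes were not tested.

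With experiment number as block, rapamycin called 8 in SKBR3, 12 in C5.2 and 7 in HB4a, both against doxorubicin 8 in SKBR3, 6 in C5.2 and 2 in HB4a (where pairing did not hold), both against vehicle 10 and both against rapamycin 1 in SKBR3. The response differences were 20 for SKBR3 minus HB4a and 18 for SKBR3 minus C5.2 with this block. Where the numbers paired, the calls added by the block stand beside the results. Where the numbers did not pair, the block gave 24 for both against vehicle and 21 for both against rapamycin in HB4a, 22 for both against vehicle in C5.2, and 23 for SKBR3 against HB4a in vehicle.

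Without the arrays that stood apart, rapamycin called 6 and both against doxorubicin 2 in C5.2, and in SKBR3 both against vehicle called 1 and both against doxorubicin 0. Without SKBR3 vehicle array 3, rapamycin and both against vehicle called 1 each. With each array left out in turn, doxorubicin called 0 in SKBR3, 11 to 17 in C5.2 and 17 to 19 in HB4a. Rapamycin called 1 to 4 in SKBR3, 1 to 5 in C5.2 (5 without rapamycin array 2) and 1 in HB4a. Both against vehicle called 1 to 4 in SKBR3 (4 without combined array 4), 19 to 20 in C5.2 and 15 to 18 in HB4a. Both against doxorubicin called 0 to 7 in SKBR3, 0 to 1 in C5.2 and 1 in HB4a, and both against rapamycin 0, 16 to 20 and 12 to 17 in the same lines. In vehicle, 20 to 22 were called for SKBR3 and 12 to 14 for C5.2, both against HB4a. The response differences called 8 to 13 for SKBR3 minus HB4a, 10 to 14 for SKBR3 minus C5.2 and 0 for C5.2 minus HB4a. The departure from additivity called 0 throughout. APAF1, EDA2R, SPATA18 and PRDM1 were dim on all arrays, so the absence of a drug call there does not show that they did not change, and 5 arrays per group limit what was detectable elsewhere.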
